A study of Homo sapiens with 10 samples.

Results

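Subclone 9 was raised from a single cell of U87MG, a line of human glioma cells, and its array was set against the arrays of the other 9. It is 1 sample of 10, chosen by its label and by no measured value. Its 7 marker genes, IL1B, CSF3, SERPINB2, MAGEA1, MMP1, PTGS2 and HMGN3, were chosen on these data. Their high ranks below are therefore no independent finding. The design compared untreated cultures of one line: single cells of U87MG were left to form colonies, which were expanded as subclones 1, 2, 3, 5, 6, 8, 9, 10, 11 and 12. All were adherent cultures in serum-containing medium, were collected in exponential growth after trypsin, and gave total RNA for 1 Affymetrix array each. Every group is therefore 1 clone and 1 array, and the spread between cultures or arrays of one clone is not known.

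The values are deposited log2 levels, 1 per gene symbol, so that a difference of 1 is a factor of 2. Each array's median was subtracted before arrays were compared, and the difference given for a gene is subclone 9 minus the median of the other 9 on that scale. A gene entered the comparison if its highest level was at or above 5.00, the median of the whole table. This left 7095 of 11880 genes. A gene is called higher in subclone 9 if its difference was at least 1 and subclone 9 lay above each other subclone, and lower in the mirror case. It is called set apart if at least 1 log2 unit separated subclone 9 from the nearest other subclone. The gap is that distance. No p-value is given, since 1 array against 9 cannot go below an exact p of 0.1.

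Several of the genes described below take part in inflammatory signalling. Interleukin 1 is made by stressed or stimulated cells and acts through its receptor on the transcription factors NF-kB and AP-1, which switch on cytokines such as IL6, the neutrophil-attracting CXCL chemokines, the colony-stimulating factor CSF3, the prostaglandin enzyme PTGS2 and proteases that break down matrix. Glioma cells can both make these factors and respond to them. Fibrillar collagens are laid down by mesenchymal cells, and hypoxia-inducible genes are switched on by the factor HIF when oxygen is low or HIF is stabilised.

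Subclone 9 had 354 higher genes, 4.99% of those compared, and 279 lower genes, 3.93%. A total of 109 genes were set apart above (1.54%) and 64 were set apart below (0.902%). At least 4-fold differences were found for 71 higher and 61 lower genes, and at least 16-fold differences for 17 higher and 5 lower genes. The filter let in 137 genes through the level in subclone 9 alone, and 70 of the higher genes and 48 of those set apart above were among them. These had to lie high in subclone 9, so the counts above the median are raised by the filter. Among the 64 genes set apart below, 58 were at or above the table median in all other subclones, and 21 were under it in subclone 9.

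The same rule was applied to every other subclone against its own other 9. Subclone 10 had 276 higher and 274 lower genes, with 121 set apart above, and subclone 11 had 170 higher and 257 lower. The other 7 subclones had between 69 and 145 higher and lower genes together, against 633 in subclone 9. Subclone 9 thus had the most genes past the first rule, and fewer genes set apart above than subclone 10. Its array also had the highest median level of the 10, 5.11, and the highest upper quartile, 7.36, while subclone 10 had the lowest of both, 4.87 and 6.75. Without subtraction of the array medians subclone 9 had 459 higher and 219 lower genes, 67.7% of its calls being higher instead of 55.9%, and its 678 calls were then fewer than the 745 of subclone 10. The part of these array differences in the counts was not tested.

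**Figure D1:**
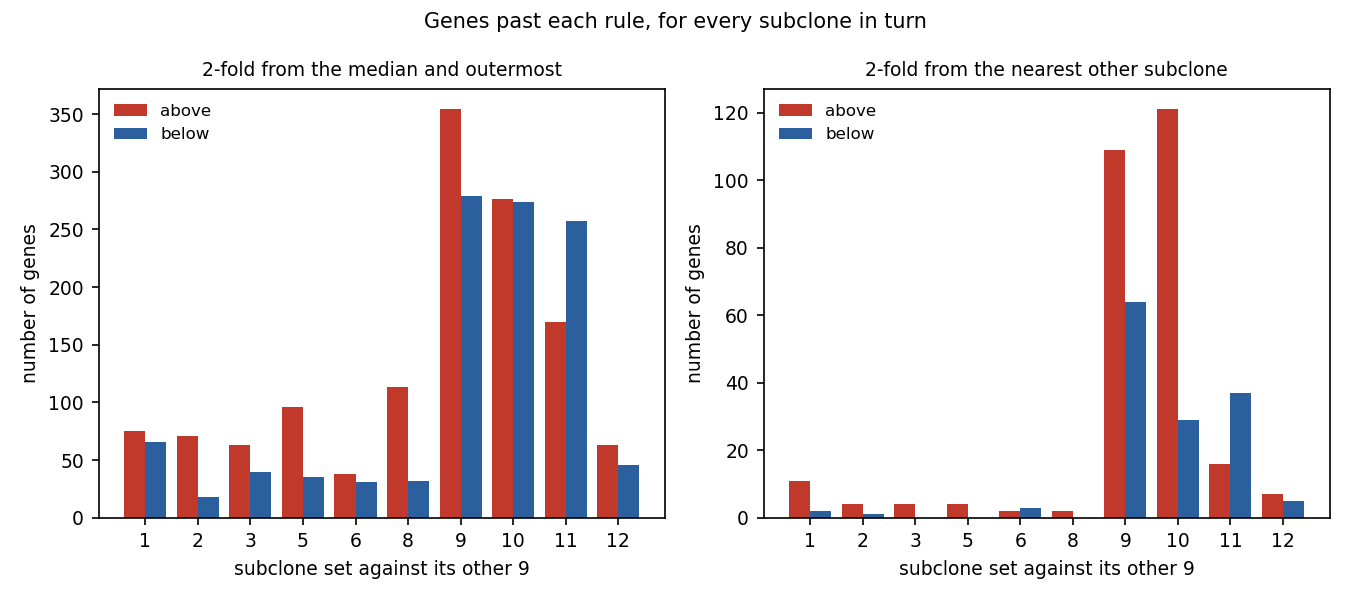
Number of genes past each rule when every subclone in turn is set against its other 9 (left, at least 2-fold from the median and outermost; right, at least 2-fold from the nearest other subclone; red above, blue below). Subclone 9 has 354 and 279 genes in the left panel and 109 and 64 in the right panel, where subclone 10 has 121 and 29.

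**Figure D2:**
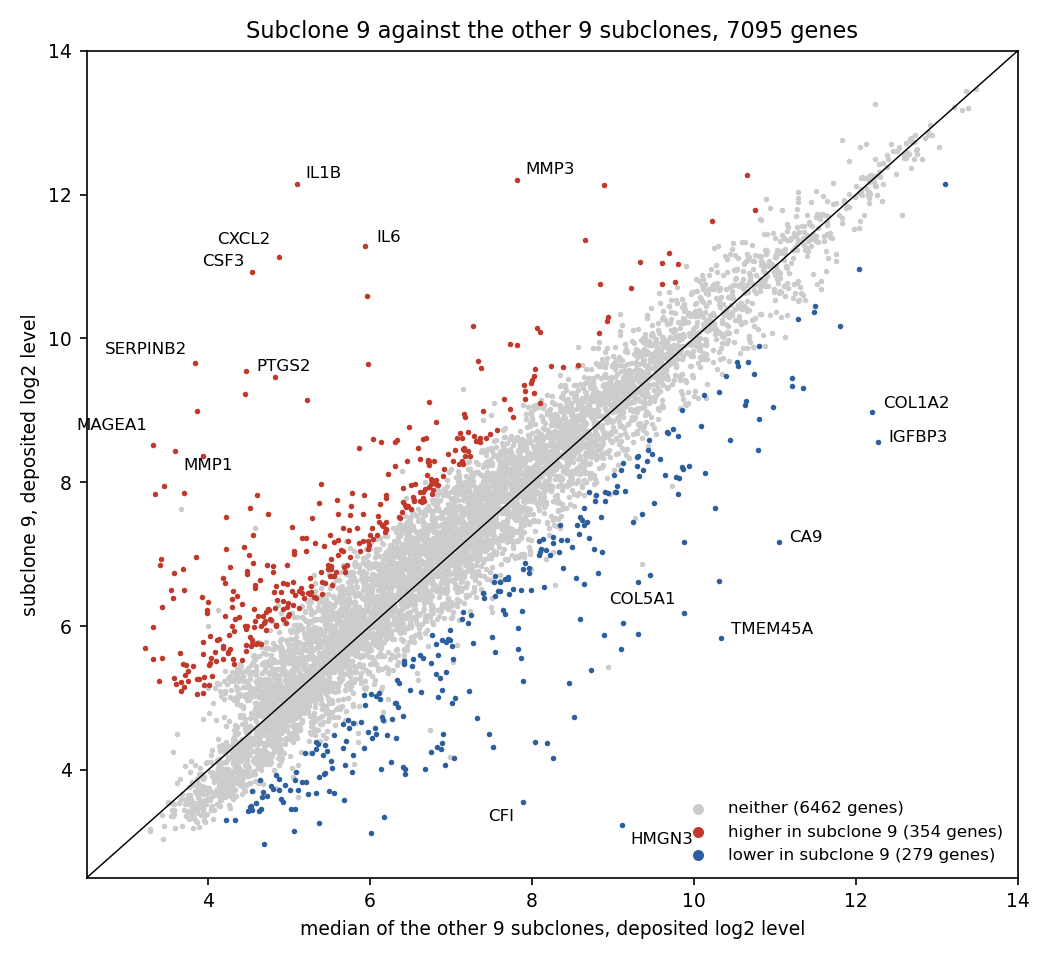
Deposited log2 level in subclone 9 (vertical) against the median of the other 9 subclones (horizontal) for 7095 genes, 1 point per gene, with higher genes in red, lower genes in blue and the line of equal levels. IL1B, CSF3 and CXCL2 lie farthest above the line and HMGN3 farthest below it.

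IL1B, which encodes interleukin-1 beta, had the largest difference of all genes compared. Its deposited level was 12.15 in subclone 9, against 8.55 in subclone 11, 8.47 in subclone 6, 5.88 in subclone 10, 5.47 in subclone 1, 5.10 in subclone 8, 4.70 in subclone 5, 4.63 in subclone 12, 4.53 in subclone 2, with the lowest, 4.43, in subclone 3. Subclone 9 lay above all others, and subclones 6 and 11 lay between it and the rest. The difference was 6.90, which is 120-fold, and the gap to subclone 11 was 3.43. IL1A, the sister cytokine, had a level of 6.39 in subclone 9 and of 3.37 to 4.23 (median 3.57) in the others. Its difference was 2.70 and its gap 1.91. IL1RN, the natural antagonist of the interleukin-1 receptor, was at 5.61 against 3.70 to 4.18, a difference of 1.53. CASP1, the protease that matures interleukin-1 beta, was at 5.96 against 4.26 to 5.02, a difference of 1.32. Both cytokines, the antagonist and the processing enzyme were therefore higher, while the kinases IRAK1 (difference 0.77) and IRAK4 (-0.18) and the receptor chain IL1RAP (-0.38) were not past the rule.

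Of 24 genes listed as the interleukin-1 family and receptors, 20 were in the table and 8 passed the filter, 2 of them through subclone 9 alone. Of the 8, 4 were higher and 0 were lower. Among all genes compared, 4.99% were higher and 3.93% lower, and the counts of every list and stretch below stand beside these shares. The median difference was 1.23 over those 8 and -0.13 over all 20. Over all genes compared it was 0.00, and over the whole table -0.10. IL1F5, another antagonist of the family, had a difference of 1.14 and was not called.

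CSF3, which encodes the granulocyte colony-stimulating factor, had a level of 10.92 in subclone 9. The others lay at 6.29 in subclone 11, 5.57 in subclone 6, 5.37 in subclone 1, 4.83 in subclone 10, 4.55 in subclone 12, 4.51 in subclone 3, 4.27 in subclone 2, 4.25 in subclone 8, with the lowest, 4.23, in subclone 5. No other subclone came near: the difference was 6.26, or 76.5-fold, and the gap was 4.46, the third largest above. IL6, a cytokine of inflammation that acts on cells through IL6ST and STAT3, was at 11.29 in subclone 9 and also high in subclone 11, at 10.32. In the other 8 it ran from 5.08 in subclone 3 to 8.32 in subclone 8. The difference of 5.33 therefore came with a gap of 0.80, and IL6 was not set apart.

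LIF, a cytokine of the IL-6 family, was at 9.23 in subclone 9 and at 3.77 to 5.29 (median 4.46) in the others. Its difference was 4.64 and its gap 3.82. IL11, another member of that family, was at 7.52 against 3.96 to 4.54, with a difference of 3.19 and a gap of 2.83. IL11 was under the table median in all 9 other subclones, and LIF in 7 of them. CLCF1, a further ligand of the family, was lower, at 5.55 against 6.09 to 6.95. The shared receptor chain IL6ST (difference 0.26) and the signal transducer STAT3 (-0.92) were not past the rule. In the list of IL-6 type cytokines and colony-stimulating factors, 4 of 10 genes compared were higher and 1 was lower, and the median difference was -0.02 (-0.16 over the 21 in the table).

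The chemokines CXCL1, CXCL2 and CXCL3 attract neutrophils and lie close together on chromosome 4. CXCL2 was at 11.14 in subclone 9, at 9.04 in subclone 11 and at 4.27 to 5.72 in the other 8. CXCL3 was at 8.99 in subclone 9, at 6.87 in subclone 11 and at 3.65 to 4.21 in the other 8. CXCL1 was at 7.84 in subclone 9 and at 3.26 to 3.80 in all others, with 3.72 in subclone 11. Subclone 11 thus stood between subclone 9 and the rest in CXCL2 and CXCL3 but not in CXCL1. The differences were 6.07, 5.00 and 4.35, and the gaps 1.93, 1.95 and 3.91. These genes are close copies of one another, and how well the probes tell them apart was not tested.

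IL8, the neutrophil chemokine now named CXCL8, was at 10.60 in subclone 9 and at 5.24 to 7.97 (median 5.96) in the others, a difference of 4.52. CXCL5 was at 5.99 against 3.20 to 3.40, a difference of 2.49. CCL4 was higher by 1.49. CCL2, which attracts monocytes, was at 8.93, below subclones 1 and 12, which reached 10.03 and 9.40. CXCL14 went the other way, at 3.67 against 4.56 to 8.87, a difference of -1.69. Of 9 chemokines compared, 6 were higher, all 6 of them set apart, and 1 was lower. The median was 2.49 over the 9, of which 3 passed the filter through subclone 9 alone, and -0.15 over the 21 in the table. Subclone 11 had the highest of the others' own medians for this list, 1.33.

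**Figure D3:**
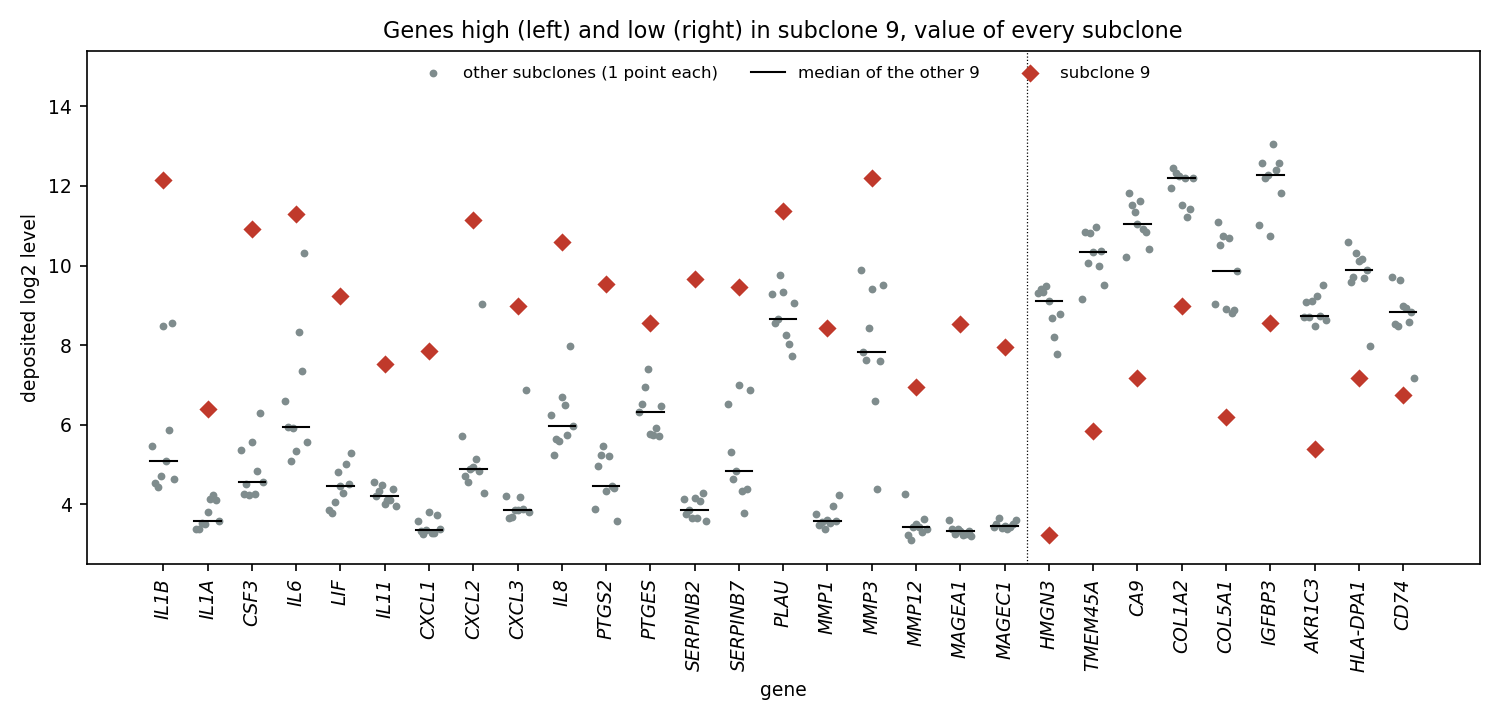
Deposited log2 level of 29 genes in every subclone (red diamond, subclone 9; grey points, the other subclones; bar, the median of those 9). To the left of the dotted line subclone 9 lies above all others, by 3.43 for IL1B and by 0.80 for IL6; to the right it lies below them, by 4.71 for HMGN3.

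Promoter windows of 300 bases (250 before and 50 after the start of the gene, RefSeq, GRCh38.p14) were read for the genes of this group. They are shown because CXCL1, CXCL2, CXCL3 and IL6 are higher together and their windows hold the NF-kB consensus, in capitals, on either strand. Those of the chemokines are chr4:73869143-73869442 (plus strand), chr4:74099146-74099445 (minus strand) and chr4:74038640-74038939 (minus strand), and that of IL6 is chr7:22726950-22727249 (plus strand).
CXCL1: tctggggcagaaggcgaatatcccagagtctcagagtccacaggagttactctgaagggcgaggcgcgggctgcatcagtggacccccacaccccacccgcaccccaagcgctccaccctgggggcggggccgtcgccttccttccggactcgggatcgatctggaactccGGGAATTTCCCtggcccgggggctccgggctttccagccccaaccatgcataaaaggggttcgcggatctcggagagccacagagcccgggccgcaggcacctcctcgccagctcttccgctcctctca
CXCL2: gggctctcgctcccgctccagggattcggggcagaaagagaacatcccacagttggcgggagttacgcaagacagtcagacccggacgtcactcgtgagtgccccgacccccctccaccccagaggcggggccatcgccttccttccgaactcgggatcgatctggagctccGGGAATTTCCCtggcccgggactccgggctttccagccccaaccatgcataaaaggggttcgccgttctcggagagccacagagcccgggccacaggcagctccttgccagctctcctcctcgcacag
CXCL3: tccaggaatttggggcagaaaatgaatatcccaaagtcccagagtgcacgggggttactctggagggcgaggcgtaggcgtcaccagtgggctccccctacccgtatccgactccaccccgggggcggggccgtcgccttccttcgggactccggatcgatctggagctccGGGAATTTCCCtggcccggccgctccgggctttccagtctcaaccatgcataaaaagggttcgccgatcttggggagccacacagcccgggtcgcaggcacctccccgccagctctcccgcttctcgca
IL6: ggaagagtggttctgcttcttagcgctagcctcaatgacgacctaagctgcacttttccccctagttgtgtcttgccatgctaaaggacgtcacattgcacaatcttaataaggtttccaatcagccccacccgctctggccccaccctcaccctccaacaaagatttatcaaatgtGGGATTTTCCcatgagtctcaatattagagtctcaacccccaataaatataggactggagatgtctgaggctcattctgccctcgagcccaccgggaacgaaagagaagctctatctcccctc

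In each chemokine window the consensus overlaps itself at 1 place, matching in both directions, and all 3 windows share a run of 23 bases around it. Of the 15 genes with the largest positive differences, 10 had a window in the table, and 5 of these held the consensus (CXCL1, CXCL2, CXCL3, IL6 and SERPINB7). IL1B, PTGS2, SERPINB2, IL8 and MAGEC1 held none. Only full matches inside the window were counted, so sites of another form or farther away were not. Among the cytokine, chemokine and receptor genes compared, 8 of 20 windows held the consensus. Of the 10 windows of higher genes among them, 5 held it. Of all 5767 windows of genes compared, 13.0% held it, against 12.5% of the 271 windows of higher genes and 17.3% of the 81 windows of genes set apart above. It was in 14.6% of the 213 windows of lower genes and in 8.0% of the 50 windows of genes set apart below. The AP-1 motif, TGANTCA, was in 4.84% of all windows compared, in 7.01% of those of higher genes and in 9.39% of those of lower genes. It was in 13.6% of those set apart above and in 10.0% of those set apart below. Only the first window listed for a gene was used. A match describes the letters of the window and is no evidence of binding.

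Genes that carry or restrain NF-kB signalling were read as a further group, together with TNFAIP6, a secreted hyaluronan-binding protein. TNFAIP6 was at 7.27 in subclone 9 and at 3.92 to 4.98 in the others, a difference of 2.61. It passed the filter through subclone 9 alone. TNFAIP3, the enzyme A20 that switches the pathway off, was at 7.37 against 5.20 to 6.26, a difference of 1.33. CHUK, a kinase of the inhibitor, and NFKBIB, an inhibitor, were higher by 1.13 and 1.07, with gaps of 0.20 and 0.68. NFKBIA, the main inhibitor, had a difference of 1.24 but did not lie above subclone 1 once array medians were subtracted. The subunits RELA (-0.31), NFKB1 (0.58), RELB (0.56) and NFKB2 (-0.22) were not past the rule. Of 16 genes compared, 4 were higher and 0 lower, with a median of 0.54 (0.30 over all 23 in the table), where the other subclones' own medians lay between -0.09 and 0.16.

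Some genes of prostaglandin synthesis were higher, and AKR1C3 was lower. PTGS2, the inducible cyclooxygenase, was at 9.54 in subclone 9, against 5.47 in subclone 5, 5.23 in subclone 3, 5.21 in subclone 8, 4.96 in subclone 2, 4.47 in subclone 10, 4.41 in subclone 11, 4.33 in subclone 6, 3.88 in subclone 1, with the lowest, 3.58, in subclone 12. Its difference was 4.84 and its gap 4.06. Subclone 11, which came closest in IL1B, IL6 and CXCL2, was not raised in PTGS2. PTGES, the synthase that follows PTGS2, was at 8.55 against 5.72 to 7.40, a difference of 2.10. PLA2G4A, which frees arachidonic acid, was higher by 1.56, and PTGER4, a receptor of prostaglandin E2, by 1.23, with gaps of 0.48 and 0.26. AKR1C3, a reductase of prostaglandins and steroids, was at 5.38 against 8.49 to 9.50, a difference of -3.58 with a gap of 3.24. The other prostaglandin E synthases, PTGES2 (0.40) and PTGES3 (-0.13), were not past the rule. Of 14 genes compared, 4 were higher (PTGS2, PTGES, PLA2G4A and PTGER4) and AKR1C3 was lower, with a median of 0.46 (-0.11 over the 24 in the table).

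SERPINB2, an inhibitor of the plasminogen activators, had the largest gap above of any gene. It was at 9.66 in subclone 9 and at 4.27, 4.15, 4.13, 4.09, 3.84, 3.74, 3.66, 3.65 and 3.58 in subclones 11, 6, 1, 10, 3, 2, 8, 5 and 12. The other 9 lay within 1 log2 unit of each other, and subclone 9 stood 5.22 above the nearest. Its difference was 5.82, or 56.4-fold. SERPINB2 passed the filter through subclone 9 alone. Its window, chr18:63887455-63887754 on the plus strand (GRCh38.p14), is shown because it is the window of the gene most set apart; it held 1 AP-1 motif, in capitals.
SERPINB2: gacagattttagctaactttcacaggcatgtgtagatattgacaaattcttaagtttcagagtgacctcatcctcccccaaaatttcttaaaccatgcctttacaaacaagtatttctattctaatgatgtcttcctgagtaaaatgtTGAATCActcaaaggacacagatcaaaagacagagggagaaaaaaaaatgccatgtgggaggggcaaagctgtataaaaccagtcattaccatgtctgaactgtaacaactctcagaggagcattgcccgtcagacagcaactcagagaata

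SERPINB7 and SERPINB8, inhibitors of the same clade and neighbours of SERPINB2 on chromosome 18, were also higher. SERPINB7 was at 9.47 in subclone 9, at 6.51 to 6.99 in subclones 1, 6 and 12 and at 3.79 to 5.32 in the other 6, a difference of 4.63. SERPINB8 was at 7.98 against 4.91 to 6.27, a difference of 2.45. The other clade members there that the table holds, SERPINB3, SERPINB4, SERPINB5, SERPINB10 and SERPINB13, were under the table median in all 10 subclones. PLAU, the urokinase that SERPINB2 inhibits, was at 11.36 against 7.73 to 9.76, a difference of 2.71. Its receptor PLAUR had a difference of 0.00. SERPINH1, a collagen chaperone of the serpin fold, was lower, with a difference of -2.09. Of 11 genes of plasminogen activation and serpins compared, 6 were higher and 1 lower, and the median was 1.14 (-0.08 over the 23 in the table). Those calls were 54.5% and 9.09% of the 11, against 4.99% and 3.93% of all genes compared.

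Several proteases of the matrix were also higher. MMP1, the interstitial collagenase, was at 8.43 in subclone 9, at 4.22 in subclone 12 and 3.96 in subclone 10, and at 3.38 to 3.75 in the other 7. Its difference was 4.70 and its gap 4.09. MMP3, stromelysin, was at 12.21 against 4.39 to 9.88 (median 7.81), a difference of 4.38 with a gap of 2.18. MMP12, the macrophage elastase, was at 6.93 against 3.10 to 4.26, a difference of 3.38. MMP1 and MMP12 passed the filter through subclone 9 alone. These 3 genes are adjacent in the gene order of chromosome 11, and the other MMP genes of that cluster in the table (MMP7, MMP8, MMP10, MMP13, MMP20 and MMP27) were under the table median in all subclones. ADAMTS5, an aggrecanase, was higher by 2.03, with a gap of only 0.22 to subclone 11. MMP2 (-0.88), MMP14 (-0.41) and the inhibitors TIMP1 (0.14) and TIMP2 (-0.03) were not past the rule. Of 13 genes compared 5 were higher, the fifth being the inhibitor TIMP4 with a gap of 0.15, and 0 were lower. The median was 0.14, and -0.23 over the 23 in the table.

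MAGEA1 and MAGEC1, X-linked genes that are normally silent outside the testis and are switched on in many tumours, were at background levels in every other subclone. MAGEA1 was at 8.52 in subclone 9 and at 3.60, 3.37, 3.37, 3.32, 3.32, 3.25, 3.24, 3.23 and 3.19 in the others. MAGEC1 was at 7.94 in subclone 9 and at 3.37 to 3.64 in the others. In both, the 9 others spanned under 1 log2 unit, and the gaps were 4.78 and 4.24. MAGEC2 was high in subclone 9, at 7.36, but also in 3 others, up to 7.86. Only 5 of the 16 cancer-testis genes in the table passed the filter, MAGEA1 and MAGEC1 through subclone 9 alone, and these 2 were higher. The list median was 2.62 over the 5 and -0.09 over the 16, so it depended on the filter. NDN, an imprinted relative of the MAGE genes, was at 7.63 in subclone 9 and higher still, at 8.19, in subclone 11.

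Genes of the integrated stress response, which lowers protein synthesis and raises amino acid supply through the factor ATF4, stood higher as a group. ATF3, a transcription factor that many stresses induce, had a level of 9.14 in subclone 9, of 7.75 in subclone 11 and of 4.71 to 5.54 in the other 8, a difference of 3.86. CTH, which makes cysteine, was at 6.96 against 3.59 to 5.75, a difference of 3.07. PSAT1, an enzyme of serine synthesis, was at 7.64 against 4.17 to 5.88, a difference of 2.99. ASNS, the asparagine synthetase, was at 9.69 against 6.41 to 8.46, a difference of 2.35. The factor DDIT3 was at 9.60, only 0.06 above subclone 11 after centring, with a difference of 2.07. CHAC1, which breaks down glutathione, and the cystine transporter SLC7A11 were higher by 1.94 and 1.45.

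Of 20 genes of this response compared, 9 were higher and 0 lower. Subclone 9 was the highest of the 10 subclones for 13 of these 20, against 1397 of all 7095 genes compared. The list was chosen with earlier results of these data known, so this contrast may follow in part from that choice. The list median was 1.12, and 1.01 over all 22 in the table, so this list depended little on the filter. The other subclones' own medians lay between -0.33 and 0.79, the highest in subclone 11. ATF4 itself had a difference of 0.96. Chaperones of the endoplasmic reticulum had a median of 0.18, within the others' range of -0.40 to 0.25, with DNAJB9 (1.92) and SDF2L1 (1.17) higher of 18 compared; HSPA5, the major chaperone, had a difference of 0.37.

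**Figure D4:**
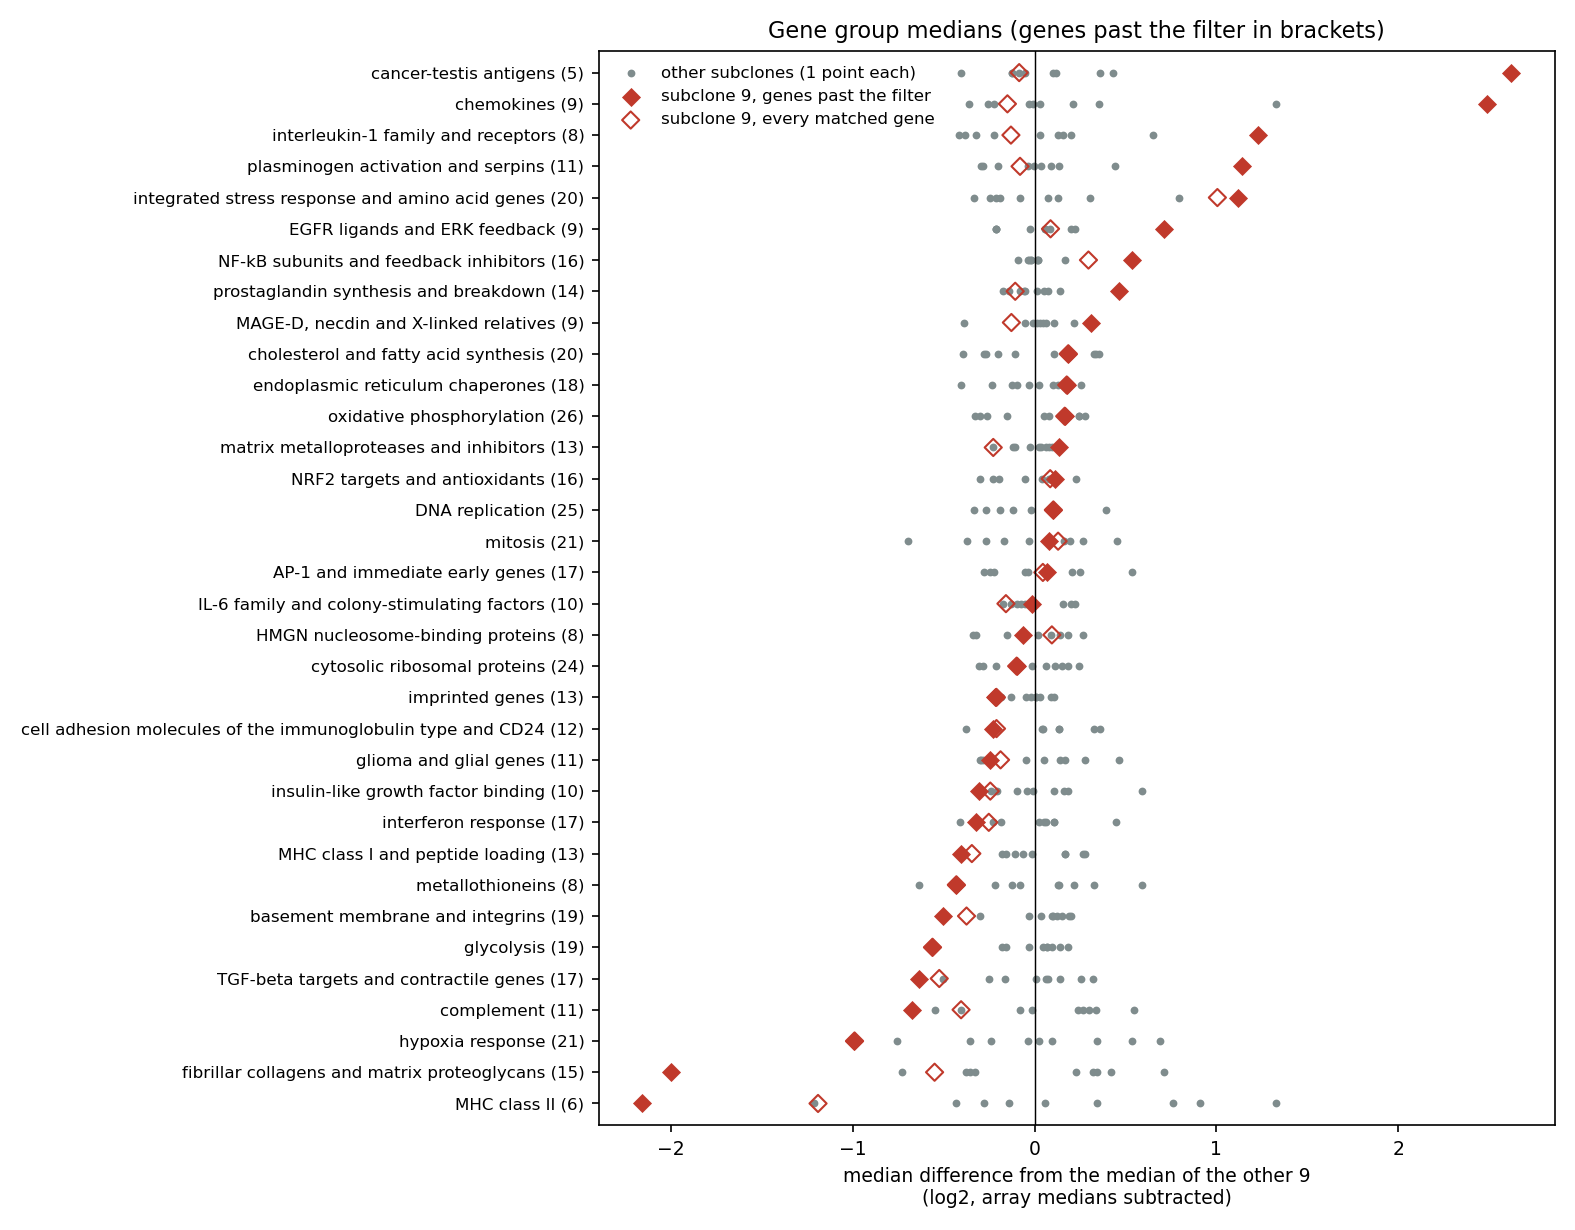
Median difference of each gene group (vertical, with the number of genes past the filter) in subclone 9 (filled diamonds, genes past the filter; open diamonds, every gene of the group in the table) and in each other subclone against its own other 9 (grey points). The stress response group lies high and the MHC class II, collagen and hypoxia groups lie low with either set of genes, while the chemokine group is at 2.49 or -0.15.

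HMGN3 had the largest difference and the largest gap below of all genes compared. It encodes a protein that binds nucleosomes and keeps chromatin accessible. Its level was 3.24 in subclone 9, against 9.47 in subclone 5, 9.40 in subclone 2, 9.34 in subclone 3, 9.31 in subclone 1, 9.11 in subclone 6, 8.78 in subclone 12, 8.68 in subclone 8, 8.19 in subclone 10, with the lowest, 7.77, in subclone 11. All 9 others were far above the table median and subclone 9 was far below it. The difference was -6.01, or 64.5-fold lower, and the gap was 4.71. HMGN1 (-0.29) and HMGN4 (0.19) of the same family were not past the rule. Neither were HMGB1 (0.09) and HMGA1 (0.53), chromatin proteins of other families in the same list. HMGN3 was the only gene past the rule among the 8 of this mixed list that were compared.

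The genes measured beside HMGN3 on chromosome 6 were read in gene order. On one side, MYO6, IMPG1, HTR1B and PHIP had differences of 0.52, -0.48, -0.51 and 0.14. On the other, ELOVL4, TTK, BCKDHB and FAM46A had differences of 0.08, 1.01, -0.16 and -1.93. IMPG1 and ELOVL4 were under the table median in all subclones. The nearest neighbours on either side, PHIP at 7.09 against 6.32 to 7.67 and ELOVL4, thus lay within the range of the other subclones. FAM46A, at 8.88 against 10.01 to 11.05, was lower and TTK was higher.

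Fibrillar collagens and their partners were low in subclone 9. COL1A2, a chain of type I collagen, was at 8.98 in subclone 9 and at 11.22 to 12.44 (median 12.20) in the others, a difference of -3.28 with a gap of 2.48. COL1A1, the other chain, was at 5.98 against 7.01 to 8.36, a difference of -2.00. COL5A1 and COL5A2, the type V chains, were at 6.19 against 8.80 to 11.10 and at 6.71 against 8.40 to 10.36, with differences of -3.80 and -2.90. In these 4 chains subclone 9 lay over 1 log2 unit below every other subclone.

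SPARC, a collagen-binding matrix protein, was at 9.31 against 10.35 to 11.54, a difference of -2.05. COL3A1 had a difference of -2.58, but its level in the others ran from 3.92 to 10.05, and subclone 9, at 4.01, stood beside subclones 1, 6 and 10. LUM, a proteoglycan, was lower still in another subclone and was not called. PCOLCE2, which helps process procollagen and lies outside the list, was at 5.87 against 8.34 to 9.44, a gap of 2.70. Of 15 genes of fibrillar collagens and matrix proteoglycans compared, 0 were higher and 6 lower, 5 of them set apart, and 14 lay below the median of the others. The median was -2.00 (-0.55 over the 26 in the table), and the others' own medians lay between -0.73 and 0.71.

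Basement membrane genes and integrins differed less, with calls in both directions. NID2, LAMB2, LAMB1, LAMC1 and the integrin chain ITGA7 were lower, with differences of -2.00, -1.38, -1.30, -1.19 and -1.16, while ITGA2, a collagen receptor chain, and COL4A6 were higher by 1.07 and 1.10. COL4A6 passed the filter through subclone 9 alone. Of the 19 genes compared, 15 lay below the median of the others. The list median was -0.50, and the other subclones' own medians lay between -0.30 and 0.20. Among targets of TGF-beta, a growth factor that drives collagen synthesis, TGFBI, TPM2 and TGFB1 itself were lower, with differences of -1.12, -1.29 and -1.15. These were 17.6% of the 17 compared, against 3.93% of all genes compared. The absence of higher genes among the 17 is near the share of all genes, 4.99%. The median was -0.64, and subclone 11 had a similar one, -0.50.

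Hypoxia-inducible genes were low as a group. CA9, the carbonic anhydrase that is among the most hypoxia-dependent genes, was at 7.17 in subclone 9, against 11.83 in subclone 2, 11.63 in subclone 8, 11.53 in subclone 3, 11.34 in subclone 5, 11.05 in subclone 6, 10.93 in subclone 10, 10.85 in subclone 11, 10.42 in subclone 12, with the lowest, 10.21, in subclone 1. The difference was -4.02, or 16.2-fold lower, and the gap to subclone 1 was 3.19. CA9 was among the 64 of 7095 genes (0.902%) set apart below. ANGPTL4, a regulator of lipoprotein lipase, was at 4.29 against 5.03 to 7.95, a difference of -2.72. NDRG1 was at 9.34 against 10.02 to 12.07, a difference of -2.02. The collagen-modifying enzymes P4HA1 and PLOD2 were lower, with differences of -1.67 and -1.21, as was PFKFB3, a regulator of glycolysis (-1.31). VEGFA, the vascular growth factor, had a difference of -0.97, with lower levels in other subclones.

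Of 21 hypoxia genes compared, 8 were lower and 0 higher, and all 21 lay below the median of the others. Subclone 9 was the lowest of the 10 for 14 of these 21, against 1200 of all 7095 genes compared. This list too was chosen with earlier results of these data known, and the contrast may follow in part from that. The median difference of the hypoxia genes was -0.99 and did not move when those under the filter were included (-0.99 over 23). Subclone 1 came next, with a median of -0.76. Of 19 genes of glycolysis, many of them also hypoxia-inducible, 4 were lower and 0 higher, with a median of -0.56 against -0.18 to 0.18 in the others. They were the glucose transporter SLC2A1 (difference -1.61), ALDOC (-1.82), PFKL (-1.24) and the lactate exporter SLC16A3 (-1.13). Genes of oxidative phosphorylation, with 0 of 26 past the rule in either direction, had a median of 0.17.

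MHC class II genes, which present antigen and are controlled by the factor CIITA, were lower without exception. HLA-DPA1 was at 7.16 in subclone 9, at 7.97 in subclone 12 and at 9.60 to 10.58 in the other 8, a difference of -2.88. CD74, the invariant chain, was at 6.74, with 7.17 in subclone 12 and 8.47 to 9.71 in the other 8, a difference of -2.25. HLA-DMA, which loads peptides, was at 6.58 against 7.74 to 9.33, a difference of -2.06. HLA-DQB1, HLA-DMB and HLA-DQA1 were lower, with differences of -2.49, -1.19 and -1.04. Subclone 12 lay next to subclone 9 in HLA-DPA1, CD74 and HLA-DQB1. All 6 genes compared were lower, with a median of -2.16 (-1.19 over the 9 in the table); subclone 12 had a median of -1.21.

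Of MHC class I genes, 0 were lower by the rule, though 10 of the 13 compared lay below the median of the others. Subclone 9 was the lowest of the 10 for 7 of these 13, against 1200 of all 7095 genes compared. As with the other lists, the choice was made with earlier results of these data known. The median of the 13 was -0.41, and the other subclones' own medians lay between -0.18 and 0.28. HLA-B, HLA-C and B2M had differences of -0.59, -0.56 and -0.35. PSMB9, an immunoproteasome subunit, was higher by 1.17, with a gap of only 0.04 to subclone 1. Of 17 interferon-response genes, 0 were past it in either direction. Probes for HLA genes can cross-react within the family, which was not tested.

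Several other genes among the 15 lowest are not in these groups. TMEM45A, a membrane protein, was at 5.83 in subclone 9 and at 9.15 to 10.97 in the others, a difference of -4.64 with a gap of 3.47. IGFBP3, a carrier of insulin-like growth factors, was at 8.56 against 10.74 to 13.05, a difference of -3.72. The matrix protein MATN2 was at 5.68 against 8.60 to 9.61, and FAM70A at 4.74 against 7.47 to 9.66. In these 4 genes the other subclones were all far above subclone 9. The complement protease CFI (difference -4.49), the adhesion molecule JAM2 (-4.10), the neuropeptide NMU (-3.95), OLFML3 (-3.76), the carboxypeptidase CPA4 (-3.76), the BMP antagonist NBL1 (-3.54) and the metallothionein MT3 (-3.44) were also among the lowest. JAM2 and OLFML3 had gaps of 0.45 and 0.52, since other subclones had levels almost as low.

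Read in gene order, chromosome 18 had the highest run of differences in subclone 9. The median over 25 neighbouring genes reached 1.09 there, while the highest such median of any other subclone on any chromosome was 0.82. The stretch from FAM59A to ADNP2, the last gene compared on the chromosome, was marked after its values were seen, as the genes around window medians of at least 0.5, and is described with no test. It held 54 genes, of which 46 lay above the median of the others and 20 were higher, with 0 lower. Their median lay 0.81 above that of all genes, against -0.15 to 0.06 in the other subclones. The 50 genes of chromosome 18 before it had a median of 0.02, with 2 higher and 2 lower.

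The stretch includes SERPINB2, SERPINB7 and SERPINB8 and also genes with other roles. MOCOS, an enzyme of molybdenum cofactor maturation, was at 7.07 against 4.08 to 4.55, a difference of 2.70. PMAIP1, the proapoptotic protein NOXA, was at 9.11 against 5.79 to 7.46, a difference of 2.37. SMAD2, a transducer of TGF-beta signals, was at 8.59 against 5.40 to 6.70, a difference of 2.12, while its partner SMAD4 had a difference of 0.54. SERPINB2 and SERPINB7 were the only 2 of the 54 with differences above 4.

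Chromosome 11 had a low and a high run in subclone 9. Runs of this size were also found in other subclones: the lowest median over 25 neighbouring genes was -0.76 in subclone 9 and -0.87 in subclone 11, and 105 such medians were past 0.5 in either direction in subclone 9, 105 in subclone 1 and 149 in subclone 11. The stretches named here were marked like that of chromosome 18, from window medians of subclone 9 at least 0.5 from 0. Their medians and counts, and the contrast with the other subclones, follow in part from that choice and are described with no test. From SSSCA1 to CCND1, 59 genes had a median of -0.56 relative to all genes, and 49 lay below the median of the others. Of these 59, 12 were lower and 0 higher. The other subclones' medians there ran from -0.13 to 0.23. The lysosomal protease CTSF (difference -2.24) and the matrix protein EFEMP2 (-1.83) were among the 12. From PRSS23 to C11orf57, 36 genes around MMP1, MMP3 and MMP12 had a median of 0.49, with 7 higher and 1 lower. On chromosome 1, 48 genes from RBBP5 to ENAH, ATF3 and CD55 among them, had a median of 0.50, with 12 higher and 2 lower.

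**Figure D5:**
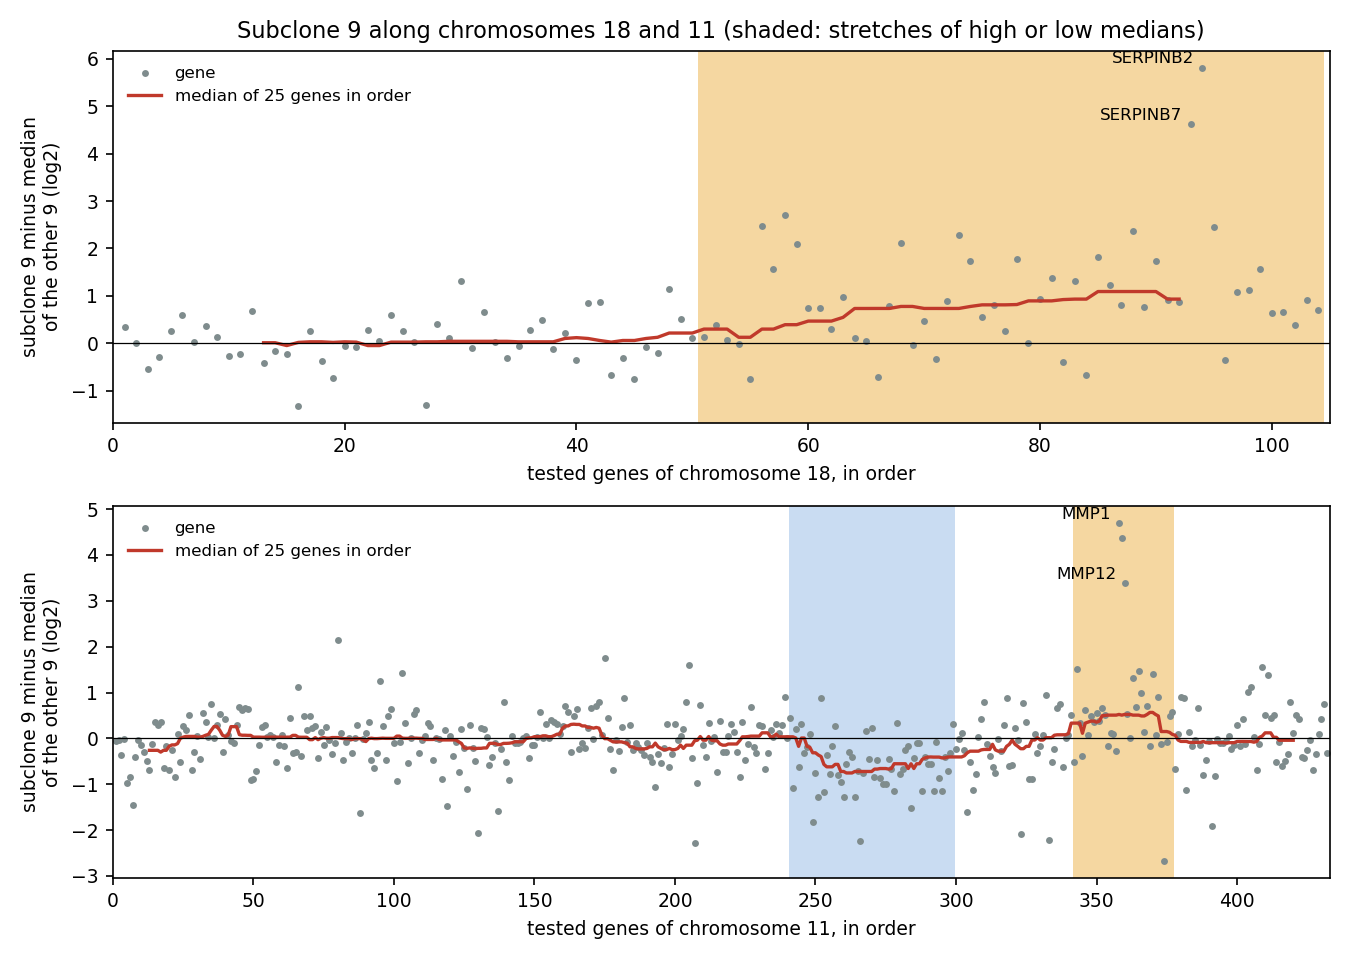
Difference between subclone 9 and the median of the other 9 (log2) for the genes compared on chromosome 18 (top) and chromosome 11 (bottom), in gene order (grey points), with the median over 25 neighbouring genes (red line) and the stretches named in the text shaded. On chromosome 18 the line leaves 0 and reaches 1.09; on chromosome 11 it falls to -0.76 and later rises above 0.5 around the MMP genes.

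Markers of glial and other cell types were read in the same array. The glioma interleukin-13 receptor IL13RA2 was higher, at 11.63 against 8.73 to 11.41, and CHI3L1 and PDGFRA were lower, with differences of -1.80 and -1.65. NES (-0.19), TNC (0.04) and EGFR (0.13) lay near the others, and the astrocyte genes GFAP and S100B, at 3.51 and 3.82 in subclone 9, were under the table median in all 10 subclones. Of 14 leukocyte markers in the table, 13 did not pass the filter in any subclone, PTPRC (3.14 in subclone 9) and CD14 (3.80) included, and CSF1R had a difference of -0.42. Of 3 epithelial markers compared 0 were higher and 1, MUC1 (difference -1.18), was lower, and of 3 endothelial and pericyte markers 0 were higher and 1, PDGFRB (-1.66), was lower. All 6 lay below the median of the others, with medians of -0.93 and -0.65, and EPCAM, at 3.25, and PECAM1, at 3.67, were under the table median.

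Mitosis and replication genes were called about as often as all genes compared, of which 4.99% were higher and 3.93% lower. Of 21 mitosis genes 1 was higher (TTK) and 1 lower (KIF20A), 4.76% each way, with a median of 0.08. Of 25 replication genes 1 was higher (CDC6) and 1 lower (MCM6), with a median of 0.10. Of 24 cytosolic ribosomal protein genes 0 were past the rule, with a median of -0.10.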

How the data were processed

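Total RNA of 10 U87MG subclones was measured on 1 Affymetrix array each. The authors deposited 1 log2 value per gene symbol and array, made with RMA per the submitters' processing notes. Sources used here give no version, array annotation or rule for joining probe sets. RMA quantile-normalizes probe signals, so a difference in total RNA cannot be seen, and it compresses weak signals. Arrays have no read depth, and their number limits the precision.

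Subclone 9 was compared with the other 9 by rank, difference and gap (Python 3.11.15, pandas 2.3.3, NumPy 2.4.6, statsmodels 0.14.6, Matplotlib 3.10.9), with each array's median subtracted and a filter at the table median. The count rules were tested on simulated data. Identical arrays were found 0 times. Symbols were matched to RefSeq (10616 current, 1082 older, 182 without a match), and 711 of 783 entries of 37 gene lists were in the table. The members and lists were chosen with earlier results of these data known. Named genes included 7 markers given with subclone 9 and chosen on these data. They also included the 15 largest differences and 8 largest gaps each way. From each list, up to 6 called members were named, or else its largest difference. The 4 measured genes on each side of HMGN3 were added, and others were named after their values were seen. Promoter windows were found for 9303 genes of the table. Some genes are not reported here. Alternatives were another scaling, reference, filter and size rule, and leaving out each other subclone.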

Additional observations from a re-analysis of the deposited data

How the results depend on the processing

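Each other subclone was left out in turn, and the scaling, reference, filter and size rule were changed. The sign of the difference held for all 128 named genes with a value under the 13 settings of scaling, reference and single left-out subclone. A filter or size rule leaves the difference of a gene as it is. Most of these genes were named for large differences, so a change of sign was unlikely from the start. Higher genes numbered 354, and 230 with the filter on the mean, 192 with the filter at 7 and 71 at a 4-fold rule; lower genes numbered 279, and 61 at 4-fold. Genes set apart above numbered 109, and 45, 59 and 26 under the same 3 settings and 61 with the filter on the highest level of the other 9; genes set apart below numbered 64, and 13 at 4-fold and 101 without subclones 10 and 11. The last 2 filters named, on the other 9 and without subclones 10 and 11, were chosen after seeing the data. Quantile scaling gave 306 higher and 271 lower genes, 297 and 242 of them shared, and an intensity curve 341 and 281. Without subtraction of array medians the median of all genes compared moved to 0.11. With no filter, list medians changed sign for the interleukin-1 family (-0.13), chemokines (-0.15), plasminogen and serpins (-0.080), cancer-testis antigens (-0.085), prostaglandin genes (-0.11) and MMPs (-0.23), since many members near background were added, and moved to 0.30 for NF-kB, -0.55 for collagens, -1.19 for MHC class II and 0.92 for the chromosome 18 stretch. With the filter at 7 they were 4.64 for IL-6 type cytokines, 4.44 for chemokines, 0.88 for NF-kB, 0.81 for serpins, 0.52 for MMPs, -0.77 for basement membrane and 1.02 for the stretch. With the filter on the mean they were -0.29 for IL-6 type cytokines, 0.49 for serpins and -0.77 for basement membrane, and with the filter on the other 9, -0.29, 0.81 for serpins and -0.031 for MMPs. Without array medians subtracted, IL-6 type cytokines were at 0.16, NF-kB at 0.61 and glycolysis at -0.42; the intensity curve gave -0.37 for glycolysis, and the mean of the others 0.41 for NF-kB. With each other subclone left out in turn the NF-kB median lay between 0.44 and 0.56 and the prostaglandin median between 0.39 and 0.57. The cause of these shifts in scaling and reference was not tested. No paired analysis was possible because each subclone is 1 array.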

Other observations

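Antioxidant and immediate-early genes were read in subclone 9 as further groups. SOD2, the mitochondrial superoxide dismutase that cytokines induce, was at a deposited log2 level of 8.78 in subclone 9 and at 5.48 to 6.71 in the other 9, a difference of 2.13 with a gap of 1.92. GCLM, a subunit of the ligase that makes glutathione, and GSR and TXNRD1, which reduce glutathione and thioredoxin, had differences of 1.17, 1.05 and 1.00, while HMOX1 (0.32) and NQO1 (0.09) were not past the rule. Of 16 genes of the NRF2 group 4 were higher and 1, AKR1C3, was lower, with a median difference of 0.11. Among AP-1 and immediate-early genes the phosphatases DUSP1 and DUSP5 and the factor ETS2 were higher, with differences of 1.20, 1.34 and 1.84, and EGR1 and JUNB were lower, with differences of -1.54 and -1.16. JUN (-0.29), FOSL1 (0.87) and MYC (0.15) were not past the rule.

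SPRY2, which restrains growth factor signalling, was at 9.92 against 7.27 to 8.70, and HBEGF, a ligand of the epidermal growth factor receptor, at 5.73 against 3.96 to 4.68. EREG, another such ligand, was at 9.30 in subclone 9 and at 9.69 in subclone 11. CD55, which protects cells from complement, was at 7.71 against 4.93 to 5.80, and MCAM, an adhesion molecule, at 7.56 against 5.40 to 6.26. The transcription factor FOXF1, the trypsin inhibitor SPINK1 and the hyaluronan synthase HAS1, named after their values were seen, had differences of 4.31, 4.14 and 3.52, each with a gap over 2. DIRAS3, an imprinted Ras relative, was at 4.72 against 6.09 to 10.52, a difference of -2.73. CD24, a surface glycoprotein, was at 3.68 in subclone 9, but ran from 3.99 to 9.26 in the others, so that its gap was 0.48.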
